A study of Mus musculus with 48 samples.

Results

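The miR-200 family was measured in germ cells and somatic cells of the mouse early ovary. Its 5 main mature miRNAs, listed there as mmu-miR-200b-3p, mmu-miR-200a-3p, mmu-miR-429-3p, mmu-miR-200c-3p and mmu-miR-141-3p, were taken by name from the 563 mature miRNAs of the count table, and all 5 had a row. miRNAs of this family are best known from epithelial cells, where they repress Zeb1 and Zeb2, the transcription factors that shut off E-cadherin and other junction genes. Zeb factors in turn repress both genomic clusters of the family, so that family and factors tend to exclude each other. In the mouse, miR-200b and miR-429 are also needed in the pituitary for ovulation.

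The libraries hold RNA shorter than 100 bases from ovaries of wild-type CD1 mouse embryos at embryonic day 13.5. Pregnant females of the founding generation drank 1 of 3 solutions until day 13 of pregnancy. Controls had the solvent alone, 0.3% DMSO by volume, and the others had that amount of DMSO with a daily dose of 35 mg/kg MEHP or 50 mg/kg VZN. MEHP is a phthalate metabolite and VZN is vinclozolin, an anti-androgenic fungicide, and the series asked how they alter small RNAs over generations. F1 embryos were exposed in the uterus, F2 and F3 descend from the exposed line, and F2Sy denotes a class with both parents from that line.

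Cells of about 80 pooled gonads, freed of the mesonephros, were split with anti-CD15 magnetic beads into primordial germ cells (PGC) and remaining somatic cells (SC). Per the labels, PGC fractions were 93 to 96% pure and SC fractions over 90% pure. Each of the 24 groups (2 fractions, 3 treatments, 4 classes) has 2 libraries. The labels do not say whether these came from separate pools, so p-values measure only the spread between libraries, which may be technical.

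The mature sequences below are shown because they divide the family across its clusters: capitals mark the seed, bases 2 to 8 from the 5′ end, which pairs with target transcripts.
miR-200b-3p: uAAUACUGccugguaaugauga
miR-200a-3p: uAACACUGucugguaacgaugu
miR-429-3p: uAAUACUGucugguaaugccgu
miR-200c-3p: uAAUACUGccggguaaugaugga
miR-141-3p: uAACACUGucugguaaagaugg

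The sequences are RefSeq's (GRCm38.p6) and carry 2 seeds. miR-200b-3p, miR-429-3p and miR-200c-3p have one seed, and miR-200a-3p and miR-141-3p have the other, which differs by U4C (miR-200b-3p as the reference, positions counted from 1 at the 5′ end). Of the 478 miRNAs of the table that matched RefSeq, 0 outside the family had either seed. The nearest pairs in sequence lie on different chromosomes. miR-200c-3p differs from miR-200b-3p at 2 of 22 compared bases (U11G and A22G), and miR-141-3p from miR-200a-3p at 2 of 22 (C17A and U22G). All other pairs differ at 4 or 5 bases. The sources used here do not say how reads that match 2 such miRNAs were assigned.

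Both clusters lie on the minus strand. In GRCm38.p6 the hairpins Mir200b (chr4:156055681-156055750), Mir200a (chr4:156054896-156054985) and Mir429 (chr4:156053905-156053987) span 1846 bases, inside an intron of the protein-coding gene Ttll10 in GENCODE M21. Mir200c (chr6:124718322-124718390) and Mir141 (chr6:124717914-124717985) span 477 bases inside an intron of the non-coding gene Gm15884, between Phb2 and Ptpn6. The count table itself gives no coordinates.

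The PGC libraries held 2932091 to 7946140 listed counts and the SC libraries 7460018 to 11761591. Levels are CPM, counts scaled to the same listed total in each library. All 5 miRNAs are 22 or 23 bases long. Whether different sequences yield reads equally well was not tested. Orders, ratios, sums and shares across different miRNAs therefore describe read counts. The table leaves some cells blank, by a rule that the sources used here do not state. It lists no count under 111 in PGC or 110 in SC. The smallest listed value of a library lay between 18.7 and 37.9 CPM in PGC and between 12.6 and 15.7 CPM in SC. Blanks were taken as missing values, except that sums and shares of the family leave a blank miR-141-3p out and so count it as 0. The labelled fractions were checked with marker miRNAs, in lists made with earlier results of these data known. The 14 germ cell markers (the miR-290 cluster and miR-302 members) summed to 153804 to 251940 CPM in PGC and 3487 to 19895 CPM in SC, and the 9 ovarian somatic markers to 12176 to 47384 CPM in PGC and 206857 to 313017 CPM in SC. miRNAs used as markers of other cells were listed too, and whether such cells were present was not tested. Blood markers (7 of 9 with a row) summed to 1154 to 7050 CPM in PGC and 8884 to 86391 CPM in SC. Most of this sum was miR-451a, with means of 2691 CPM in PGC and 18531 CPM in SC. Means of miR-142a-3p (106 and 41.8 CPM where listed) and miR-150-5p (130 and 116 CPM) were higher in PGC. Of 2 blood markers tested between control fractions, 1 was lower in PGC and 0 higher. Endothelial miR-126a-3p held 2271 to 11495 CPM in PGC and 16721 to 30782 CPM in SC. The 3 neural markers summed to 4048 to 7852 CPM in PGC and 79.7 to 674 CPM in SC. The 1 neural marker tested had a log2 fold change of 4.79 between control fractions. The median of the 11 germ cell markers tested was 4.77. Library 2 of VZN F2Sy in PGC and library 1 of MEHP F3 in SC stood farthest from the others of their fraction. The results were also computed without these 2 libraries.

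The 2 clusters differed between germ cells and somatic cells. miR-200c-3p, of the chromosome 6 cluster, was abundant in germ cells and low in somatic cells in every library, while the 3 miRNAs of the chromosome 4 cluster had overlapping levels in both fractions. miR-141-3p, the cluster partner of miR-200c-3p, was listed in 20 of 24 PGC libraries and in 0 of 24 SC libraries. The share of all miRNAs listed in this way is not given here. Its listed PGC values were 22.7 to 140 CPM, beside a smallest listed value of 12.6 to 15.7 CPM in SC libraries. The size of its difference is therefore unknown, and the contrast between clusters rests on miR-200c-3p.

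For miR-200c-3p the 8 control PGC libraries held 1587 to 1982 CPM (median 1813) and the 8 control SC libraries 50.8 to 113 CPM (median 95.6). The groups did not overlap, and 32.7% of all 251 tested miRNAs were likewise higher in control PGC without overlap. The means were 1797 ± 159 and 91.4 ± 20.8 CPM (SD, n = 8 each), a ratio of 19.7. In the MEHP line the ranges were 1245 to 2236 CPM in PGC and 73.2 to 179 CPM in SC, with a ratio of means of 16.2 and no overlap (30.7% of all miRNAs). The VZN line ranged from 891 to 2148 CPM in PGC and from 69.5 to 195 CPM in SC, with a ratio of 15.3 and no overlap (28.3% of all miRNAs). The lowest PGC library, at 891 CPM, was library 2 of VZN F2Sy, and it still lay far above the highest SC library. Fewer cells that carry a miRNA and less of it per cell cannot be told apart in such bulk samples.

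In edgeR's quasi-likelihood test on all 48 libraries, miR-200c-3p was higher in PGC by a log2 fold change of 4.42 ± 0.18 (SE) in control (adjusted p = 6.49e-19, Benjamini-Hochberg over the 251 miRNAs listed in every library). It rose by 4.10 ± 0.18 in the MEHP line (adjusted p = 2.05e-18) and by 4.02 ± 0.18 in the VZN line (adjusted p = 5.46e-18). This fold change ranked 29 of 251 in each of the 3 treatments, counted from the most PGC-biased miRNA.

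The chromosome 4 members stood close in both fractions in control. miR-200a-3p ranged from 936 to 1776 CPM in PGC (median 1254) and from 1015 to 1368 CPM in SC (median 1314). miR-429-3p, the member of this cluster with the highest mean, ranged from 1283 to 1944 CPM in PGC (median 1642) and from 1176 to 1739 CPM in SC (median 1426). miR-200b-3p ranged from 264 to 593 CPM in PGC (median 445) and from 229 to 466 CPM in SC (median 409). In all 3 cases the ranges overlapped.

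The fitted log2 differences in control were 0.09 ± 0.16 (SE) for miR-200a-3p (adjusted p = 0.594), 0.25 ± 0.19 for miR-200b-3p (adjusted p = 0.221) and 0.29 ± 0.16 for miR-429-3p (adjusted p = 0.0852). Their 95% intervals ran from -0.23 to 0.41, from -0.14 to 0.64 and from -0.03 to 0.62, far below the interval of 4.05 to 4.79 of miR-200c-3p. Thus 1 of 4 tested members passed in control, where 84.1% of all miRNAs tested did, 41.8% as higher in PGC. For the chromosome 4 members a result short of the threshold was the less usual outcome in this table. The value for miR-200a-3p is also the median of all 251 log2 fold changes (0.09), and scaling by library size alone moved it to -0.02.

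In the MEHP line all 4 tested members passed as higher in PGC, where 87.3% of all miRNAs passed, 44.6% as higher. The chromosome 4 members differed by 0.49 ± 0.16 (miR-200a-3p, adjusted p = 0.00494), 0.49 ± 0.16 (miR-429-3p, adjusted p = 0.00541) and 0.45 ± 0.19 (miR-200b-3p, adjusted p = 0.0295). With blanks as 0 only miR-200c-3p of these 4 still passed, at 0.33 for miR-200a-3p, 0.33 for miR-429-3p and 0.29 for miR-200b-3p. With blanks at the smallest listed count miR-200a-3p (0.37) and miR-200b-3p (0.33) missed the threshold, and miR-200b-3p also did with library size alone (0.37) and with only the groups compared (0.47). The call of miR-200b-3p was lost without any 1 of 6 libraries (libraries 1 of F1 and F2Sy and 2 of F2 and F3 in MEHP PGC, and libraries 1 of F1 and F2 in MEHP SC), with values of 0.26 to 0.44 and adjusted p of 0.0507 to 0.175. In the VZN line only miR-200c-3p passed, where 81.3% of all miRNAs did, 38.6% as higher, and the others stood at 0.09 to 0.28. The difference between treatments was itself tested, and no member passed (adjusted p = 0.999 for each, unadjusted p of 0.175 to 0.581), with 0.0% of all miRNAs called, 3 of them at an unadjusted p under 0.05. The call for the chromosome 4 members in the MEHP line and its absence in the others are therefore not shown to differ.

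miR-429-3p lay near the threshold outside the MEHP line. Leaving out any 1 of 19 of the 48 libraries made it pass in control, at 0.33 to 0.42 (adjusted p of 0.0219 to 0.0497), and any 1 of 5 libraries made it pass in the VZN line, at 0.33 to 0.41. miR-200b-3p passed in control without library 2 of control F2Sy in PGC or library 1 of control F2 in SC, at 0.43 to 0.45.

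**Figure D1:**
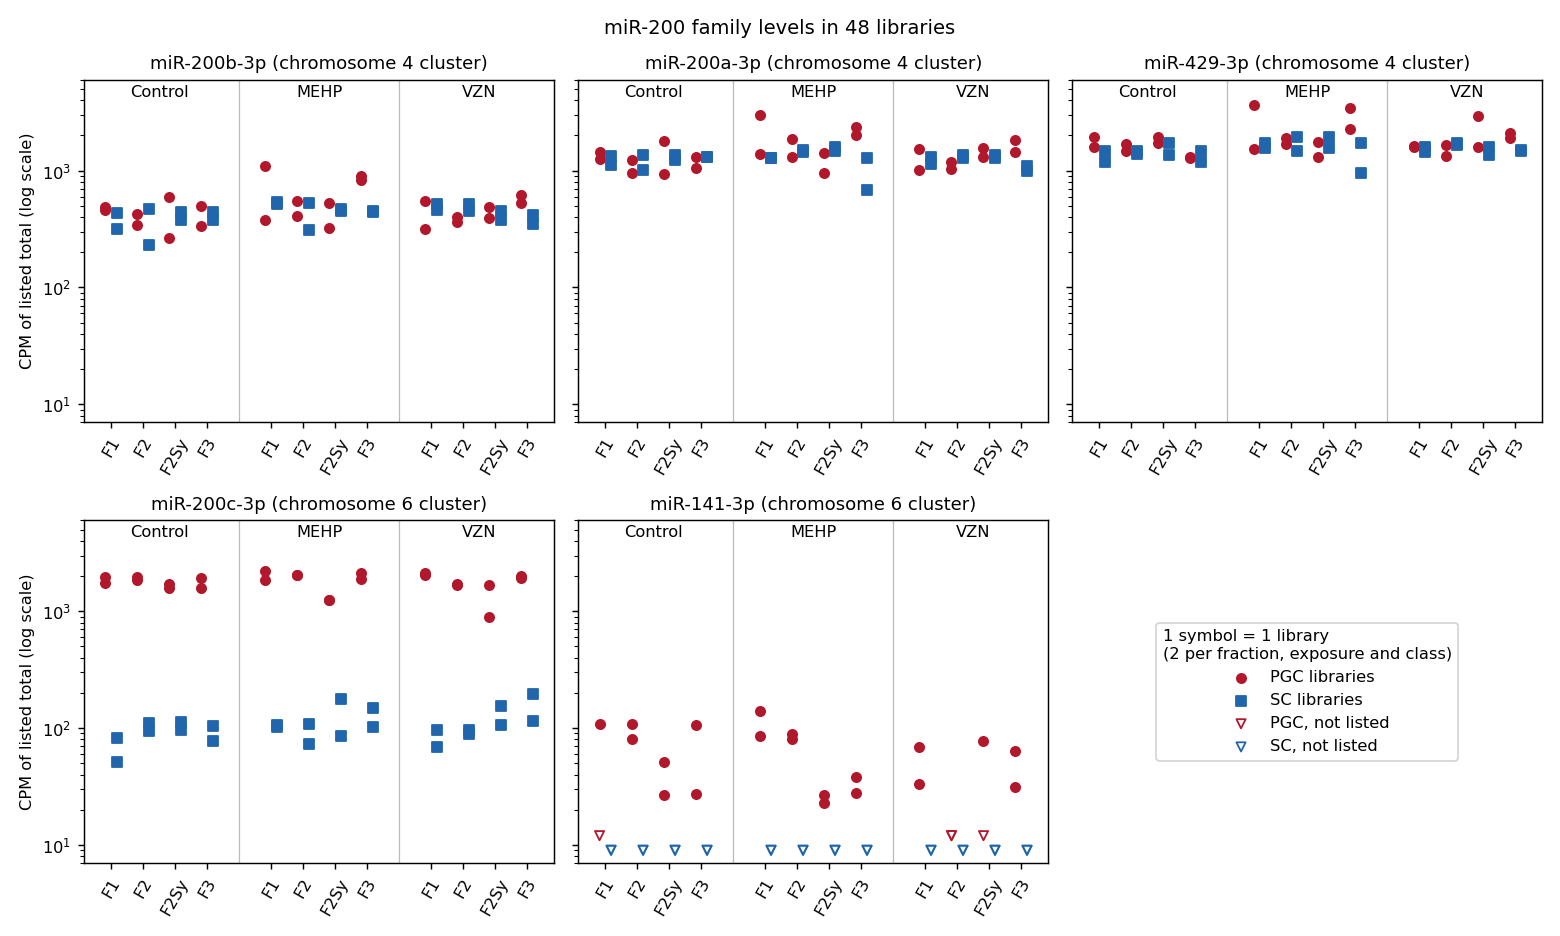
Levels of the 5 family members in 48 libraries, in CPM of the listed total on a log axis, by treatment and class; each filled symbol is 1 library, and open triangles mark libraries in which the miRNA was not listed, with no meaning for their height. For miR-200c-3p every PGC library lies above 890 CPM and every SC library at or under 195 CPM, while the chromosome 4 members overlap between fractions.

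miR-141-3p shares the seed of miR-200a-3p and the genomic cluster of miR-200c-3p. In control PGC its libraries 1 and 2 held 109 and 80.4 CPM in F2, 26.9 and 51.5 CPM in F2Sy, and 27.2 and 106 CPM in F3, while in F1 the first was blank and the second held 108 CPM. MEHP PGC had 85.2 and 140 CPM in F1, 80.8 and 88.5 CPM in F2, 22.7 and 26.8 CPM in F2Sy, and 27.8 and 37.9 CPM in F3. VZN PGC had 33.1 and 68.7 CPM in F1 and 63.7 and 31.6 CPM in F3, no listed value in F2, and 78.2 CPM and a blank in F2Sy. The single highest value, 140 CPM, came from MEHP F1, the treatments overlapped, and many values lay near the smallest count the table lists, which was 18.7 to 37.9 CPM in PGC.

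With its blanks miR-141-3p could not enter the fits. No fold change between fractions is given for it, since all 24 SC libraries are blank and any SC value would be a filled-in one. Where both were listed, miR-200c-3p exceeded miR-141-3p by 5.05 ± 0.76 on the log2 scale (SD, n = 20; 3.74 to 6.10). Of the other arms of the 5 hairpins, 1 had a row, miR-200a-5p, with 154 counts (23.4 CPM) in library 1 of MEHP F1 in PGC and 129 counts (14.4 CPM) in library 2 of MEHP F2Sy in SC. These were 0.779% and 0.893% of the counts of both arms of that hairpin.

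The order of levels within the family differed between fractions. In PGC miR-200c-3p exceeded miR-429-3p in 14 of 24 libraries and miR-200a-3p in 18 of 24, miR-429-3p exceeded miR-200a-3p in 23 of 24, and miR-200b-3p was lower than these 3 in all 24. In SC the order was miR-429-3p over miR-200a-3p in 22 of 24 libraries, then miR-200b-3p and then miR-200c-3p in all 24. Over all PGC libraries the means were 1883 ± 620 CPM for miR-429-3p, 1798 ± 317 CPM for miR-200c-3p and 1464 ± 486 CPM for miR-200a-3p (SD, n = 24), with 503 ± 195 CPM for miR-200b-3p. The means of miR-429-3p and miR-200c-3p differ by less than 1 SD of either. In SC they were 1520 ± 228, 1268 ± 191, 430 ± 76.2 and 107 ± 33.3 CPM for miR-429-3p, miR-200a-3p, miR-200b-3p and miR-200c-3p. Among the miRNAs listed in a library, miR-200c-3p ranked at a median of 86 in PGC and 281 in SC, while miR-429-3p ranked 89.5 and 92.5.

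The chromosome 6 cluster gave 33.3% ± 6.53 of the family's summed CPM in PGC (SD, n = 24; 16.2 to 43.3%) and 3.27% ± 1.23 in SC (1.76 to 6.66%), with no overlap between the fractions. With miR-141-3p blank, the SC share is that of miR-200c-3p alone. The same-seed pair of miR-200b-3p and miR-200c-3p, which compares 1 member of each cluster, had a mean log2 ratio of -1.90 ± 0.48 in PGC, where libraries ran from -2.75 to -1.04. The same ratio was 2.05 ± 0.50 in SC, where they ran from 0.83 to 2.72. In the 20 PGC libraries that list all 5 members, the summed chromosome 4 cluster exceeded the chromosome 6 cluster by 0.98 ± 0.39 on the log2 scale (0.39 to 1.73). With blanks at the smallest listed count it did so by 1.02 ± 0.45 in PGC and 4.78 ± 0.44 in SC (n = 24 each), where every miR-141-3p value is a filled-in one. These balances describe the libraries and were not tested.

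**Figure D2:**
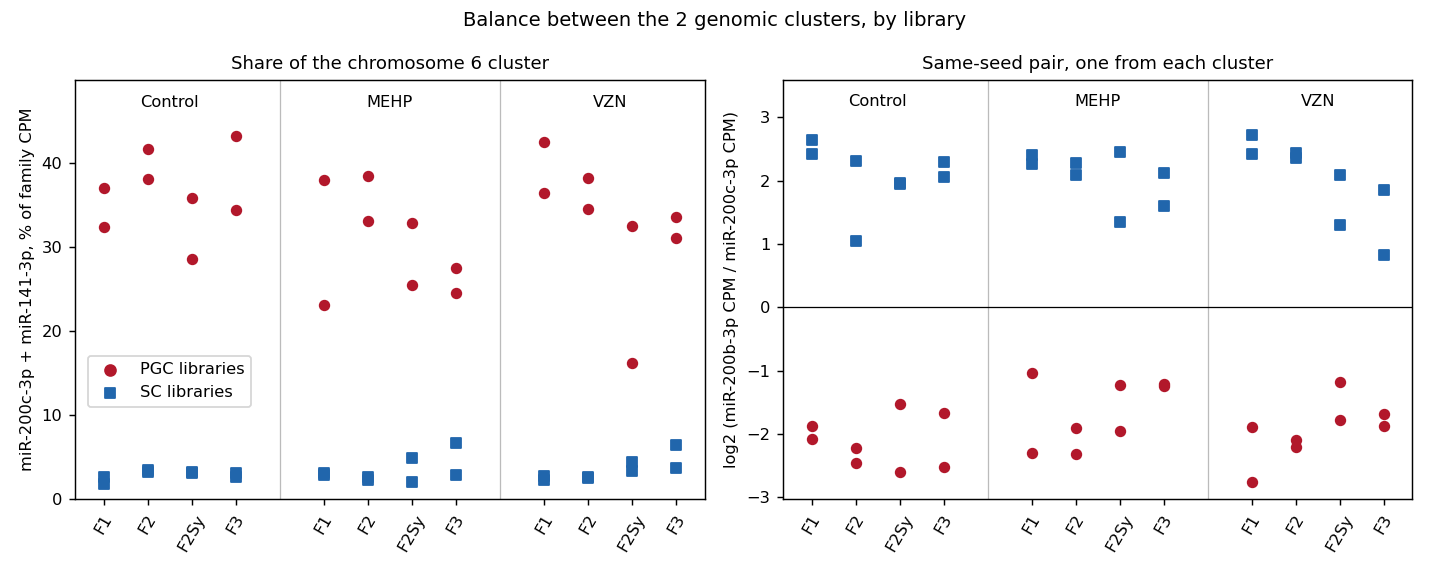
Balance between the 2 clusters in each library, as the chromosome 6 share of the family's CPM in % (left) and as the log2 ratio of miR-200b-3p to miR-200c-3p (right), by treatment and class. The fractions separate in both panels, at 16.2 to 43.3% against 1.76 to 6.66% and at ratios below and above 0.

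Summed by seed, the family gave 4184 ± 904 CPM with the AAUACUG seed in PGC and 2057 ± 272 CPM in SC, and 1518 ± 492 and 1268 ± 191 CPM with the AACACUG seed (SD, n = 24 each), the last being miR-200a-3p alone. The second seed made up 26.3% ± 3.01 of the family in PGC and 38.1% ± 3.88 in SC. The whole family was 0.570% of listed counts in PGC and 0.332% in SC.

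Within PGC the members of the chromosome 4 cluster rose and fell together across libraries. Pearson's r of log2 CPM between miR-200b-3p and miR-200a-3p was 0.96 and Spearman's rho 0.92 over 24 libraries (permutation p = 1e-05 for both, the smallest that 100000 permutations can give, adjusted p = 0.000215 and 0.00043 over 43 relations). Without the 2 libraries farthest from the median r was 0.92, and between libraries of the same group, after removal of the 12 group means, it was 0.97. miR-429-3p followed less closely, at r = 0.76 and rho = 0.62 with miR-200a-3p (permutation, adjusted p = 0.00043 and 0.0137) and r = 0.72 and rho = 0.62 with miR-200b-3p (permutation, adjusted p = 0.00086 and 0.0134). Without the 2 farthest libraries these fell to r = 0.54 and 0.46.

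Members of different clusters did not show this in PGC. miR-200c-3p had r of 0.35 with miR-200a-3p, 0.33 with miR-200b-3p and 0.04 with miR-429-3p, and 0 of these passed by permutation (adjusted p of 0.258 to 0.908). miR-200c-3p and miR-141-3p, of the same cluster, had r = 0.51 and rho = 0.41 over the 20 libraries that list both (permutation, adjusted p = 0.0707 and 0.245), and r = 0.24 without the 2 farthest. CPM share a total within each library, and the differences between these correlations were not tested.

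In SC the tie between miR-200b-3p and miR-200a-3p was not seen, at r = -0.07 and rho = -0.01 (permutation, adjusted p = 0.822 and 0.976). There miR-200a-3p varied by a coefficient of variation of 15.1% and miR-200b-3p by 17.7%, against 33.2% and 38.8% in PGC. miR-200a-3p and miR-429-3p gave r = 0.63 and rho = 0.36 in SC (permutation, adjusted p = 0.0154 and 0.263), and r = 0.36 without the 2 farthest libraries, 1 of which was library 1 of MEHP F3, low in both at 687 and 960 CPM. That relation rests on the libraries left out.

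**Figure D3:**
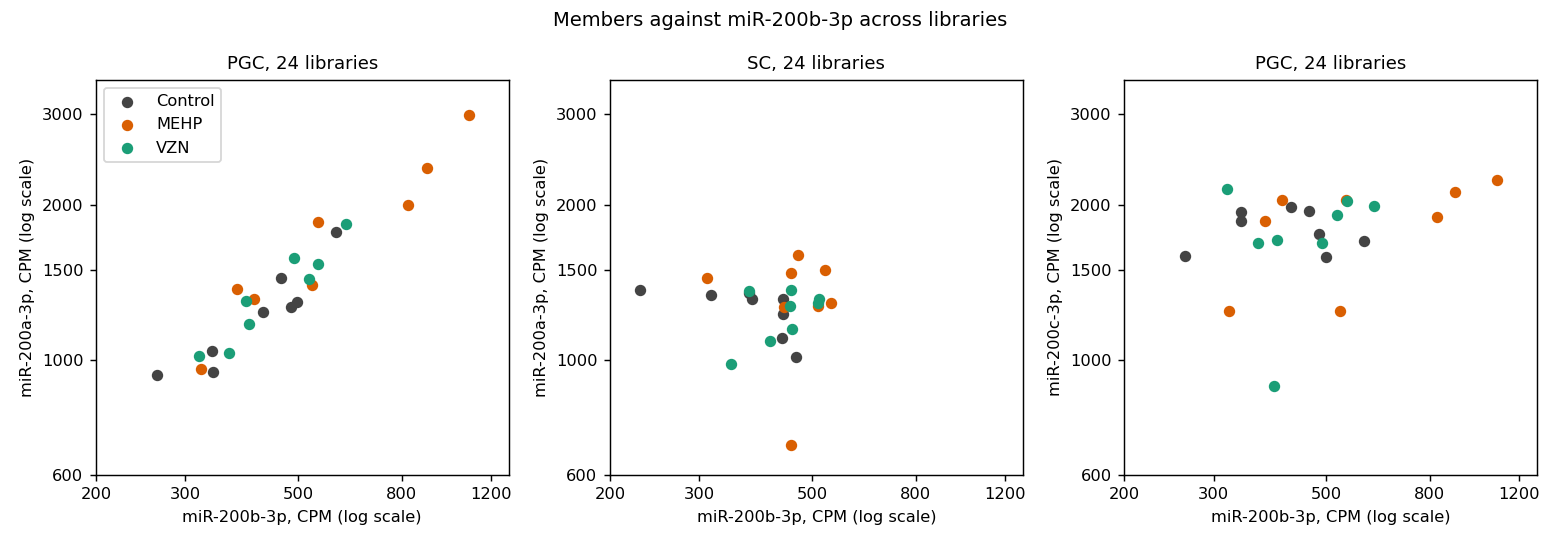
miR-200a-3p against miR-200b-3p in PGC (left) and SC (middle), and miR-200c-3p against miR-200b-3p in PGC (right), in CPM on log axes; each point is 1 library, coloured by treatment. The PGC points of miR-200a-3p follow a line (r = 0.96), with 3 MEHP libraries at its upper end, and those of the other panels do not (r = -0.07 and 0.33).

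miR-200c-3p rose and fell with the germ cell markers in SC, and less clearly in PGC. Its r with the summed germ cell markers was 0.79 and rho 0.69 in SC (permutation, adjusted p = 0.000215 and 0.00459), with 0.61 without the 2 farthest libraries and 0.86 within groups. In PGC r was 0.70 and rho 0.50 (permutation, adjusted p = 0.00086 and 0.0803), so the rank correlation did not pass. There r was 0.59 without the 2 farthest and 0.53 within groups. How miRNAs outside the family followed this sum is not given here. miR-141-3p gave r = 0.66 and rho = 0.66 with the same sum over 20 PGC libraries (permutation, adjusted p = 0.00553 and 0.0137). The mean of miR-200c-3p in SC was 5.93% of its mean in PGC, beside 4.32% for the germ cell marker sum, while miR-200b-3p, miR-200a-3p and miR-429-3p stood at 85.6%, 86.6% and 80.7%. How much of the miR-200c-3p in SC came from remaining germ cells was not tested.

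**Figure D4:**
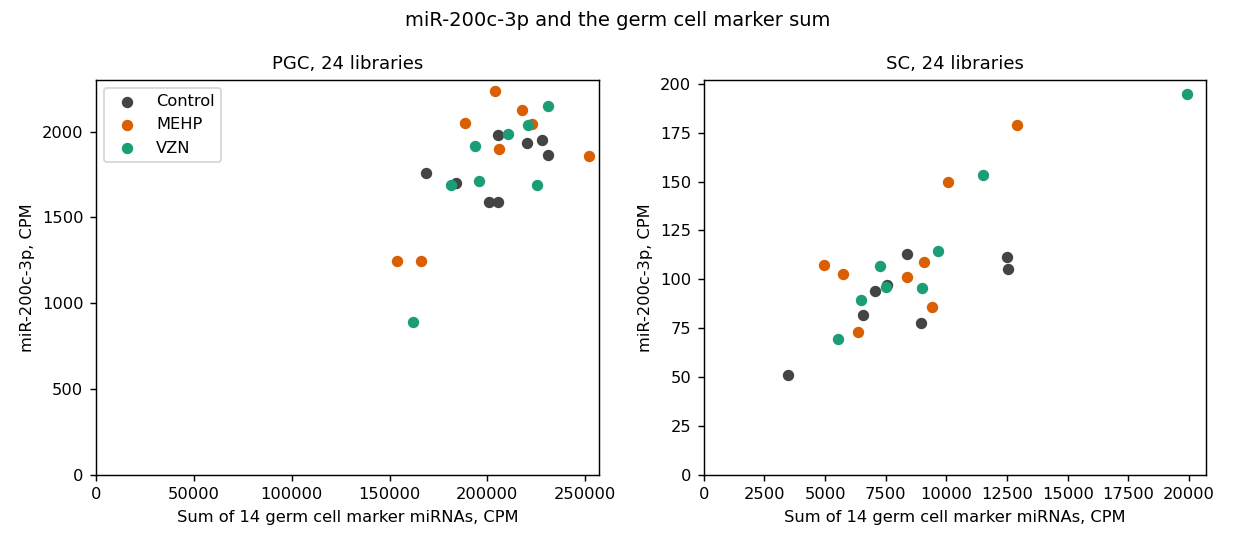
miR-200c-3p against the sum of 14 germ cell marker miRNAs in PGC (left) and SC (right), both in CPM on linear axes that start at 0; each point is 1 library, coloured by treatment. The lowest miR-200c-3p value in PGC, 891 CPM, stands at a marker sum of 162110 CPM, and in SC the library with the highest marker sum, 19895 CPM, also has the most miR-200c-3p, 195 CPM.

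Of the chromosome 4 members, miR-429-3p varied with markers of other epithelia in PGC. The 5 epithelial markers, among them miR-192-5p of gut and kidney epithelium, summed to 548 to 1251 CPM in PGC and 658 to 1298 CPM in SC, and all 5 were listed in every PGC library. In SC miR-205-5p was listed in 11 of 24 libraries, which shifts the sum there. Of the 4 tested between control fractions, 1 was higher in PGC and 3 lower, beside 41.8% and 42.2% of all miRNAs. The parts of the sum thus went different ways. Means were 238 CPM in PGC and 124 CPM in SC for miR-375-3p, and 266 and 405 CPM for miR-192-5p. Their sum gave r = 0.76 and rho = 0.69 with miR-429-3p in PGC (permutation, adjusted p = 0.00043 and 0.00459), 0.72 without the 2 farthest libraries and 0.86 within groups. With miR-200b-3p and miR-200a-3p r was 0.47 and 0.45 and rho 0.48 and 0.43, and neither passed (permutation, adjusted p of 0.0707 to 0.145). In SC the sum gave r of 0.21 to 0.39 and rho of 0.18 to 0.28 with the 3 members and none passed (permutation, adjusted p of 0.204 to 0.566).

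The miRNAs outside the family most like each member were ranked by Pearson's r of log2 CPM over the 24 libraries of a fraction. In PGC miR-10a-5p, encoded in the Hoxb gene cluster, and miR-204-5p were the top 2 for all 3 chromosome 4 members, at r of 0.76 to 0.79 and 0.71 to 0.84, followed by miR-192-5p for miR-200b-3p (0.58) and miR-429-3p (0.63) and miR-196b-5p for miR-200a-3p (0.49). miR-200c-3p in PGC was most like miR-20b-5p (0.80), miR-181d-5p (0.79) and miR-7a-5p (0.79). In SC it was most like 2 members of the miR-290 cluster, miR-292b-5p (0.78) and miR-292a-3p (0.77), and miR-31-5p (0.74). The chromosome 4 members had no shared name among their top 3 in SC, where miR-200a-3p led with miR-455-5p (0.88), miR-429-3p with miR-467e-5p (0.80) and miR-200b-3p with miR-412-5p (0.39). These r are descriptions over libraries that share treatments and totals.

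Other miRNAs known from epithelia were split between the fractions. Of 16 listed for comparison (miR-203, miR-205, miR-375, miR-192, miR-194, miR-215, miR-31 and the miR-183 cluster), 8 were tested between control fractions, and 5 were higher and 3 lower in PGC, with a median log2 fold change of 2.97 beside 0.09 for all 251. Over all tested miRNAs 41.8% were higher and 42.2% lower. Those higher included miR-183-5p (mean 39957 CPM in PGC and 1612 CPM in SC), miR-182-5p (30554 and 1221 CPM), miR-96-5p (9699 and 407 CPM) and miR-31-5p (2116 and 103 CPM). Those lower included miR-192-5p (266 and 405 CPM) and miR-194-5p (74.4 and 173 CPM), which were picked after their values were seen. Of 15 mesenchymal miRNAs, 8 were tested and 7 were lower in PGC and 1 higher, with a median of -3.36, among them miR-10b-5p (5720 and 47618 CPM).

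Averaged over the 4 classes, no family member passed the test for MEHP or VZN against control in either fraction, and 0.0% of all miRNAs did. In PGC the chromosome 4 members had higher means in the MEHP line. miR-200a-3p ranged from 936 to 1776 CPM in control (median 1254) and from 963 to 2986 CPM with MEHP (median 1629), and 4 of 8 MEHP libraries lay above every control library. miR-429-3p ranged from 1283 to 1944 CPM in control (median 1642) and from 1312 to 3650 CPM with MEHP (median 1845). miR-200b-3p ranged from 264 to 593 CPM in control (median 445) and from 322 to 1085 CPM with MEHP (median 540). For miR-429-3p and miR-200b-3p 3 of 8 MEHP libraries lay above all controls, and the groups overlapped for all 3 miRNAs.

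Their log2 fold changes were 0.49 ± 0.18 for miR-200a-3p, 0.50 ± 0.23 for miR-200b-3p and 0.42 ± 0.17 for miR-429-3p (SE), with unadjusted p of 0.0172, 0.0440 and 0.0287 and an adjusted p of 0.995 each by edgeR's quasi-likelihood test over 303 miRNAs. Of these 303, 5 had an unadjusted p under 0.05, a smaller share than 0.05 itself, and 3 of the 5 were these members. The 3 members varied together across PGC libraries (r of 0.72 to 0.96), so they are not 3 separate results. miR-200c-3p stood at 0.02 ± 0.13 (adjusted p = 0.995). Without library 1 of MEHP F1, which held the highest PGC value of miR-200c-3p and of all 3 chromosome 4 members, their fold changes fell to 0.32, 0.27 and 0.23. The epithelial marker sum ranged from 632 to 819 CPM in control and from 557 to 1066 CPM in MEHP PGC libraries, and its part in these values was not tested.

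VZN gave smaller log2 values in PGC, from -0.08 ± 0.13 for miR-200c-3p to 0.14 ± 0.17 for miR-429-3p (adjusted p of 0.935 to 0.999). Without library 2 of VZN F2Sy the value of miR-200c-3p was 0.038. MEHP against VZN gave 0.40 ± 0.18, 0.45 ± 0.23, 0.27 ± 0.17 and 0.10 ± 0.13 for miR-200a-3p, miR-200b-3p, miR-429-3p and miR-200c-3p (adjusted p of 0.874 to 0.953). Both compounds were compared with the same controls, at different doses. In SC the MEHP values were 0.06 ± 0.12 (miR-200a-3p), 0.26 ± 0.16 (miR-200b-3p), 0.19 ± 0.14 (miR-429-3p) and 0.31 ± 0.19 (miR-200c-3p), and the VZN values were -0.02 ± 0.12, 0.20 ± 0.16, 0.14 ± 0.14 and 0.32 ± 0.19, all with an adjusted p of 0.994 or more. The 95% interval of miR-200c-3p in SC reached 0.72 with MEHP and 0.73 with VZN, so the test leaves room for such a rise.

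**Figure D5:**
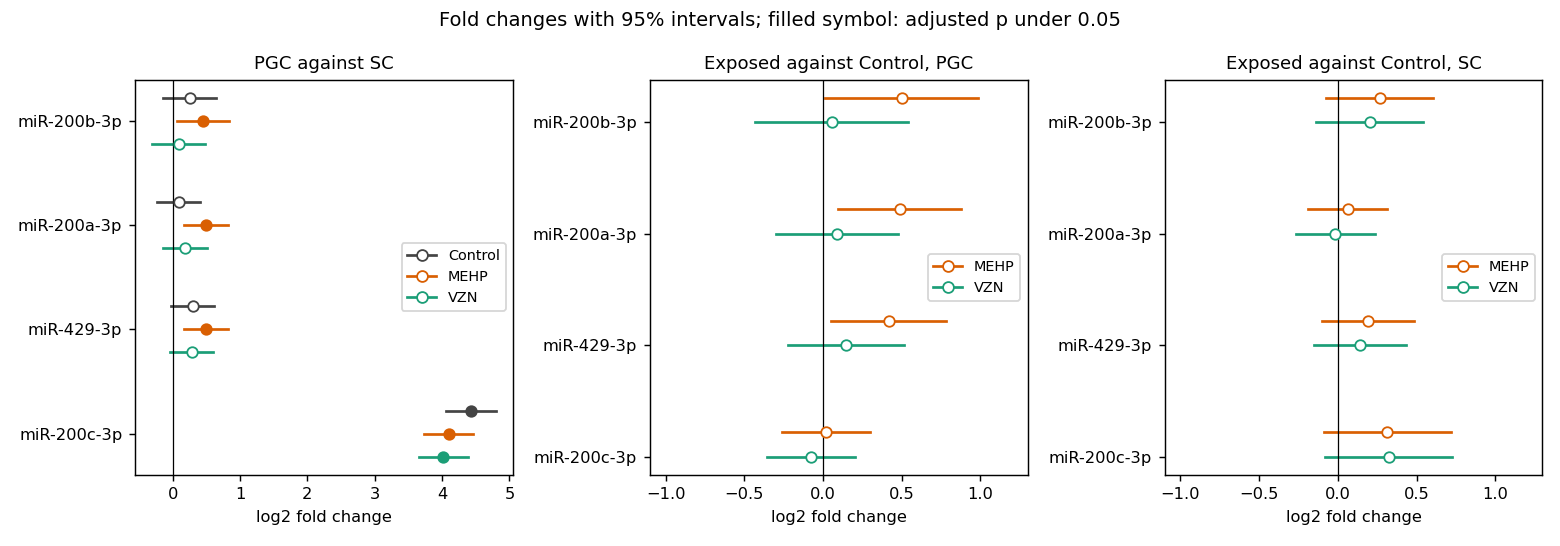
log2 fold changes (points) with 95% intervals (lines) of the 4 members tested by edgeR, for PGC against SC in each treatment (left) and for each compound against control as a mean of 4 classes in PGC (middle) and SC (right); filled points have an adjusted p under 0.05. miR-200c-3p lies between 4.02 and 4.42 in the left panel, and no point is filled in the other 2 panels.

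By class, 0 of the 4 tested members passed in any of the 16 comparisons of an exposed group with control, where 0 or 1 of all miRNAs passed in each (at most 0.33%, in VZN F2Sy in PGC). The smallest p among members belonged to MEHP F3 in PGC. There miR-429-3p was at 2272 and 3406 CPM, with control F3 at 1283 and 1297 CPM, miR-200a-3p 1999 and 2361 against 1298 and 1043 CPM, and miR-200b-3p 825 and 897 against 499 and 339 CPM. None of the 3 overlapped with control, whereas miR-200c-3p did, at 1900 and 2124 against 1587 and 1936 CPM. The log2 fold changes were 1.14 ± 0.35, 0.89 ± 0.37 and 1.02 ± 0.46 (SE), and 0.19 for miR-200c-3p, with edgeR adjusted p of 0.615 for miR-429-3p and 0.997 for the other two chromosome 4 members.

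In that comparison 8.58% of all miRNAs were higher without overlap. The epithelial marker sum stood at 930 and 1066 CPM in MEHP F3 and at 632 and 690 CPM in control F3. In VZN F3 in PGC the same 3 members were also higher without overlap against the same control libraries, at 1841 and 1440 CPM for miR-200a-3p, 2099 and 1893 CPM for miR-429-3p and 621 and 525 CPM for miR-200b-3p, beside 19.8% of all miRNAs. The marker sum was 845 and 903 CPM there. The part of these markers in the members' values was not tested.

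The high MEHP value in F1 came from 1 library of 2. In MEHP F1 in PGC library 1 held 2986, 3650 and 1085 CPM of miR-200a-3p, miR-429-3p and miR-200b-3p, and library 2 held 1377, 1518 and 379 CPM. miR-200c-3p was closer in the same pair, at 2236 and 1860 CPM, and the epithelial marker sum was 964 and 557 CPM. In library 2 of VZN F2Sy in PGC, which had the fewest counts, miR-429-3p stood at 2922 CPM and the marker sum at 1251 CPM, with miR-200a-3p at 1302 CPM.

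F2Sy was the class with the lowest mean of miR-200c-3p in PGC in all 3 lines, control included, and in the VZN line that mean rests on library 2, which stood apart. Its libraries 1 and 2 were at 1245 and 1247 CPM in MEHP F2Sy, 1688 and 891 CPM in VZN F2Sy and 1700 and 1592 CPM in control F2Sy. The MEHP pair did not overlap with control (log2 fold change -0.41), beside 21.1% of all miRNAs lower without overlap. The germ cell marker sum was 166062 and 153804 CPM in that pair and 184197 and 205643 CPM in control F2Sy. In SC, miR-200c-3p was at 114 and 195 CPM in VZN F3 and at 105 and 77.8 CPM in control F3, a log2 fold change of 0.85 ± 0.38 (edgeR adjusted p = 0.906), with germ cell marker sums of 9632 and 19895 against 12557 and 8963 CPM.

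Over the 16 member and class pairs of a compound and fraction, MEHP libraries were higher than control without overlap in 5 and lower in 1 in PGC, beside 13.8% and 15.3% of all miRNAs over the 4 classes, and higher in 7 and lower in 1 in SC, beside 18.2% and 19.2%. VZN libraries were higher in 4 and lower in 1 in PGC, beside 18.6% and 11.1%, and higher in 4 and lower in 1 in SC, beside 13.9% and 15.7%. Pairs of libraries separate easily, and the counts were not tested. Differences between classes in the effect of MEHP or VZN gave no call for any member (adjusted p of 0.684 or more). Differences among the control classes gave none either (adjusted p of 0.991 or more). In each of these tests 0.0% of all miRNAs were called, in PGC and in SC.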

How the data were processed

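The authors deposited whole-number read counts for 563 mature miRNAs in 48 libraries, which per the file headers add isomiRs to the canonical form. The tool Bowtie 1.3.1 and the build mm39 appear in the submitters' processing notes; the sources used here do not state counting rules or annotation. Of 27024 cells 7089 are blank (26.2%) and none is 0.

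Libraries were grouped by their titles. Counts were fitted with edgeR 4.0.16 under R 4.3.3 (TMM factors after filterByExpr, glmQLFit with robust set, Benjamini-Hochberg adjustment, calls at an adjusted p under 0.05) on miRNAs listed in every library of a fit: 251 for 48 libraries, 303 for PGC and 355 for SC, with a biological coefficient of variation of 0.310, 0.336 and 0.297. miR-141-3p, blank in 28 libraries, was in none. CPM divide counts by a library's listed total; blanks are missing from totals, so totals are not depth. Without molecular identifiers, reads need not be separate molecules. Scripts were tested on simulated data. Correlations used 100000 permutations of libraries in scipy 1.17.1. Sequences came from RefSeq GRCm38.p6, a build other than the authors'.

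Alternatives were RLE factors, library size alone, blanks as 0 or at the smallest listed count, DESeq2 1.42.0, only the groups compared, all 48 libraries, a replicate block and each library left out; leaving out both libraries that stood apart was added after seeing the data. The members, lists and the rule for likeness were chosen with earlier results of these data known. The members, the other arms of their hairpins, the 3 miRNAs most like each member and list examples of high mean CPM are named. Piwi-interacting RNAs were not analysed here.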

Additional observations from a re-analysis of the deposited data

How the results depend on the processing

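The call of miR-200c-3p as higher in PGC held under all 8 alternatives and without each library in turn, at 4.26 to 4.45 and 4.34 to 4.61 in control. The number of members called in control was 2 with blanks as 0 or at the smallest listed count (miR-141-3p added, with every SC value filled in) and with only the groups compared or without both libraries that stood apart (miR-429-3p added), and 1 to 3 without single libraries. In the MEHP line it was 2 with blanks as 0 (miR-141-3p and miR-200c-3p) and 3 to 4 without single libraries. In the VZN line it was 2 with RLE factors, DESeq2 (miR-429-3p added) or blanks at the smallest count (miR-141-3p added), and 1 to 2 without single libraries. In the MEHP line miR-200b-3p also missed the threshold with library size alone, both settings of blanks and only the groups compared, miR-200a-3p with both settings of blanks, and miR-429-3p with blanks as 0. The libraries whose omission let miR-429-3p pass in control were control PGC F2Sy 2 and SC F1 1, F2Sy 1 and F3 1; MEHP PGC F1 1 and 2 and SC F1 2, F2 1 and 2, F2Sy 2 and F3 1 and 2; and VZN PGC F1 1, F2 2 and F2Sy 1 and 2 and SC F1 1, F2 2 and F2Sy 2. In the VZN line they were MEHP PGC F1 1 and 2, MEHP SC F3 1 and 2 and VZN PGC F2Sy 1.

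For exposures, 0 members were called under any alternative. Without single libraries the count ranged from 0 to 1 for MEHP by class and between classes in SC (miR-200a-3p without library 2 of MEHP F3) and for VZN by class in PGC (miR-200c-3p without library 1 of VZN F2Sy). Signs changed for values near 0. miR-200a-3p between control fractions was -0.019 with library size alone, -0.056 with blanks as 0 and -0.055 with blanks at the smallest count, and -0.049 to 0.24 without single libraries. miR-200b-3p in the VZN line was -0.011 with blanks as 0. miR-200c-3p for MEHP against VZN in SC was 0.0074 with RLE factors or DESeq2, 0.011 with library size alone, 0.030 with blanks at the smallest count, 0.045 with all 48 libraries and -0.15 to 0.11 without single libraries; without both libraries that stood apart, it was 0.038 for VZN and -0.0091 for MEHP against VZN in PGC. Without single libraries, PGC values spanned -0.015 to 0.051 (miR-200c-3p, MEHP), -0.028 to 0.21, -0.083 to 0.21 and -0.23 to 0.038 (miR-200a-3p, miR-200b-3p and miR-200c-3p, VZN) and -0.0091 to 0.25 (miR-200c-3p, MEHP against VZN). In SC they spanned -0.083 to 0.17 and -0.056 to 0.030 (miR-200a-3p, MEHP and VZN) and, for MEHP against VZN, -0.068 to 0.18, -0.041 to 0.15 and -0.089 to 0.15 (miR-200a-3p, miR-200b-3p and miR-429-3p). The causes were not tested. The shares of all miRNAs called under the changed settings of this and the preceding paragraph are not given here. A moved count of members is therefore not read as particular to the family.

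Deviations of same-numbered libraries correlated at -0.53 to 0.56 over 66 pairs of PGC groups (median 0.04). Over 66 pairs of SC groups they correlated at -0.40 to 0.55 (median 0.07). Between PGC and SC of the same treatment and class the range was -0.46 to 0.53 over 12 pairs (median -0.003). The labels do not say whether same-numbered PGC and SC libraries came from 1 pool, and these values cannot settle it. The main fits took the libraries as unpaired. A replicate block left the numbers of members called at 1, 4 and 1 between fractions and 0 for exposures. The 2 libraries of a group limit single classes most, and the totals hold no depth for blank cells.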
